A study of Homo sapiens with 2 samples.

Results

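The immediate early transcription factors examined here were EGR1, EGR3, FOS, FOSB, FOSL1, FOSL2, JUN, JUNB, ATF3 and MYC, a set fixed by gene name. All 10 were measured, out of 14812 named genes, through 13 of the 15835 named features of the array. RNA came from MCF-10A, an established line of human mammary epithelial cells that do not form tumours, in 2 forms. The EGFP vector line stably expressed EGFP alone, and the EGFP-ARHGAP4 line stably expressed ARHGAP4, a GTPase-activating protein, joined to EGFP. Both lines thus carried EGFP, and the labels do not say whether either was a pool of cells or 1 clone, nor at what density or how long after feeding the cells were taken. Each line was measured once, on 1 Affymetrix whole-transcript array, so there is no replicate error and every difference below compares 2 arrays, not 2 conditions.

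Immediate early genes are transcribed within minutes of a stimulus such as a growth factor, serum, stretch or stress, without new protein synthesis, because the factors that switch them on are already present. FOS and JUN family proteins pair through leucine zippers into the AP-1 transcription factor, EGR proteins bind GC-rich sites through zinc fingers, ATF3 is a stress-induced leucine zipper factor, and MYC pairs with MAX at E-boxes. In mammary epithelial cells these genes are best known as early outputs of the epidermal growth factor receptor and ERK pathway, on which MCF-10A growth depends.

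Values are deposited log2 expression values, and a difference is the EGFP-ARHGAP4 value minus the EGFP vector value, also in log2 units. A gene counted as past the level filter when its higher value reached 4.02, the median of all gene-level values. Of the 10 members 9 passed, 8 of them in both arrays; EGR3 passed through the EGFP-ARHGAP4 array alone, and ATF3 was below in both. The reference is the 7685 genes past the filter, whose median difference was -0.10 and of which 36.7% lay above 0. Of these genes 85.0% differed by less than 0.5, which corresponds to 1.41-fold. A difference of at least 0.5 was found upward in 5.15% and downward in 9.81% of them; over all 14812 named genes the shares were 4.25% and 6.47%. The balance between directions depended on the scaling: 396 genes past the filter were higher and 754 lower as deposited, against 554 and 514 after quantile normalization and 557 and 504 after loess. ARHGAP4 itself stood at 4.49 with EGFP alone and 6.68 with EGFP-ARHGAP4, in the direction of the labels. Among 11 measured mammary epithelial markers 10 were past the filter in both arrays, among them KRT5 at 8.33 and 8.34, while the basal keratin gene KRT14 had a difference of -2.25 and the epithelial adhesion gene EPCAM one of 1.20. Of markers of other cell types, none of 3 measured fibroblast genes passed in either array, while 2 of 4 immune genes (CD68 and CD14) and 1 of 4 adipocyte genes (CFD) passed in both. Of 7 endothelial genes CLDN5 passed in both and the growth factor receptor gene KDR in the EGFP-ARHGAP4 array only, at 3.36 and 5.63, a difference of 2.27 that exceeds the 2.19 of ARHGAP4. The part of these markers in the results below was not tested. In bulk RNA a change in the share of cells that express a gene and a change in the RNA per cell cannot be told apart.

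Taken as a group, the members were mostly higher in the EGFP-ARHGAP4 array. The difference was above 0 for 7 of the 10 and below 0 for EGR1, FOSL1 and MYC, with a median of 0.20 and a range from -0.35 to 0.80. Over the 6 members past a stricter filter of 5.91 (EGR1, FOSL1, FOSL2, JUN, JUNB and MYC) the median was 0.016. All genes past that stricter filter had a median of -0.13. EGR3, FOS and ATF3 were higher by at least 0.5, no member was lower by that much, and no member reached a 2-fold difference, which 1.0% of genes past the filter did upward and 0.794% downward. At a threshold of 0.25, 4 members were higher and 1 was lower, against 14.2% and 29.9% of genes past the filter. ATF3 sat on the threshold itself, and only EGR3 and FOS count among the 9 members past the filter. At 0.5 the shares of all genes past the filter were 5.15% higher and 9.81% lower.

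**Figure D1:**
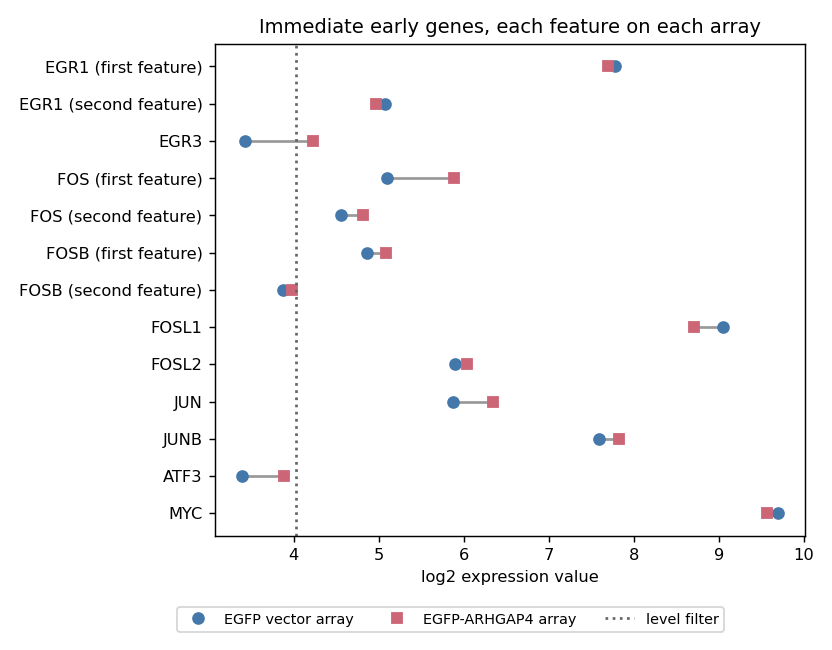
Log2 expression value (horizontal axis) of each of the 13 features of the 10 member genes in the EGFP vector array (blue circles) and the EGFP-ARHGAP4 array (red squares), 1 array each, with no error bars because there are no replicates; the dotted line is the level filter at 4.02. The widest gaps are those of EGR3 and the first FOS feature, and the EGR1, FOSL1 and MYC features lie to the left in the EGFP-ARHGAP4 array.

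The promoters of 4 members are shown because FOS, JUN and ATF3 had 3 of the 4 largest upward differences of the group, while EGR1, a classical partner of FOS in the early response, did not differ in that direction. EGR3 had the largest, but the promoter set used held no window for EGR3, FOSL1 or MYC. Each sequence shown is the RefSeq window of GRCh38.p14 on the gene's own strand. It runs from 250 bases before to 50 bases after the start site listed for the gene. Capitals mark matches, on either strand, to the short form of the cyclic AMP response element, TGACG, the CArG box bound by serum response factor, the TATA box TATAAA and the CCAAT box. FOS lies at chr14:75278578-75278877 on the plus strand, JUN at chr1:58783998-58784297 on the minus strand, ATF3 at chr1:212565157-212565456 on the plus strand and EGR1 at chr5:138465229-138465528 on the plus strand.
FOS: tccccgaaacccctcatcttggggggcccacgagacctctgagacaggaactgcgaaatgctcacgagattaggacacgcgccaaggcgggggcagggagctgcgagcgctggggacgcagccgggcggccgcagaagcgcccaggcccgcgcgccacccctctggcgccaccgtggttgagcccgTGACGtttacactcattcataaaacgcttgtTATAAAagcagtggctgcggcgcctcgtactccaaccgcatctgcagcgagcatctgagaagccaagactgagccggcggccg
JUN: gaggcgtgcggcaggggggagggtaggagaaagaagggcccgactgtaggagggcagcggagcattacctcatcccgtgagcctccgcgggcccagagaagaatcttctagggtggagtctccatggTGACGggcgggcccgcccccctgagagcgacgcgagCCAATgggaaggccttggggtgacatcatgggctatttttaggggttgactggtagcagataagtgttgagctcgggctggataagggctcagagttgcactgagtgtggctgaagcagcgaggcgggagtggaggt
ATF3: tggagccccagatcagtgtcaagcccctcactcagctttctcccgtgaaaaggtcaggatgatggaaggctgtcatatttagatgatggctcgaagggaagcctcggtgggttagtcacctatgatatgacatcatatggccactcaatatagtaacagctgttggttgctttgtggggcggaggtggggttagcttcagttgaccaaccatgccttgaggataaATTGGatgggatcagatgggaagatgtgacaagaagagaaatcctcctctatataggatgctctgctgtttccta
EGR1: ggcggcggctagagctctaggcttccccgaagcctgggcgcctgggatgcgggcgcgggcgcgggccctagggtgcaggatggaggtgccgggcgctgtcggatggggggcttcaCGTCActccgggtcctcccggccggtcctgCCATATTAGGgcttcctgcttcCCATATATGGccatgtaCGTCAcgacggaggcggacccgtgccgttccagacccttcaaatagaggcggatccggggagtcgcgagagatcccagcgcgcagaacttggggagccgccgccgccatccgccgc

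The FOS window held TGACG starting 64 bases before the start site and TATAAA starting 33 bases before it. The JUN window held TGACG at 123 bases before the start site and CCAAT at 87. The ATF3 window, of the start site that the table lists, held a CCAAT box on the opposite strand at 25 bases before it. The EGR1 window held 2 CArG boxes, CCATATTAGG at 105 and CCATATATGG at 83 bases before the start site, and TGACG on the opposite strand at 135 and 66. Among 7 members with a window searched (EGR1, FOS, FOSB, FOSL2, JUN, JUNB and ATF3), TGACG was found in 6, against 6828 of 27305 promoter windows of the same length. TATAAA was found in 3 of the 7 (FOS, FOSB and JUNB) against 3264 of the 27305, CCAAT in 3 (JUN, JUNB and ATF3) against 35.7%, and the CArG box in EGR1 alone against 1.29%. The AP-1 site TGANTCA was found in FOSL2 alone against 7.76%, the EGR site GCGNGGGCG in EGR1 alone against 9.28%, and the full site TGACGTCA, which contains TGACG, and the E-box CACGTG in none, against 1.98% and 7.43%. A match is a stretch of letters, and elements outside these windows were not searched. Each gene was searched only at the start site listed for it. A missing match, as of TGACG in ATF3, does not speak for other start sites. Only the exact forms named were counted. The printed JUN and ATF3 windows each hold TGACATCA, a near form of TGACGTCA that no search here covered.

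The FOS family spanned both directions. FOS, the founding member, whose protein is short-lived and needs a JUN partner to bind DNA, stood at 4.82 with EGFP alone and 5.35 with EGFP-ARHGAP4 as the mean of its 2 features, a difference of 0.53 or 1.44-fold. Only 344 of the 7685 genes past the filter had a larger upward difference. FOSB, a close relative also made in a truncated form by splicing, stood at 4.36 and 4.53, a difference of 0.17. FOSL2, a more slowly induced member, was at 5.90 and 6.03, a difference of 0.13. FOSL1, the member most often tied to sustained ERK signalling and to invasive breast cell lines, went the other way, at 9.05 and 8.70, a difference of -0.35 or 1.27-fold lower. It had the lowest difference of the 10 members, which moved to -0.25 after quantile normalization and -0.22 after loess. Only after loess was no member lower by 0.25. Even so, as deposited 19.9% of genes past the filter had a lower difference than FOSL1, so its place was not at the edge of the distribution.

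FOS, FOSB and EGR1 each rested on 2 features, and the pairs differed in size. The first FOS feature stood at 5.09 with EGFP alone and 5.89 with EGFP-ARHGAP4, a difference of 0.79 or 1.73-fold. The second was at 4.55 and 4.81, a difference of 0.27 or 1.20-fold. Both were higher, but the mean of 0.53 stands for neither. The FOSB features were at 4.86 and 5.08 and at 3.87 and 3.98, differences of 0.22 and 0.11. The EGR1 features were at 7.78 and 7.69 and at 5.08 and 4.97, differences of -0.09 and -0.11. Feature numbers on this array follow chromosome and strand. Where the 20 nearest single-feature genes by number shared 1 strand, the gene's own strand was the same for 9088 of 9096 genes. All 3 genes lie on the plus strand, and for each the first feature lay among 20 plus-strand genes and the second among 20 minus-strand genes. Which strand the second features read at these loci is stated in no source used here. The first features alone gave FOS 0.79, FOSB 0.22 and EGR1 -0.09. Among the other members with a listed promoter, JUN, JUNB, FOSL2 and ATF3, the single feature lay among 20 genes of the gene's own strand.

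Both JUN genes among the members were higher. JUN, the DNA-binding partner of FOS and itself a target of AP-1, stood at 5.87 with EGFP alone and 6.34 with EGFP-ARHGAP4, a difference of 0.47 or 1.39-fold. This fell just short of 0.5 as deposited and passed it after quantile normalization or removal of the level trend, at up to 0.58. JUNB, which can oppose JUN at some targets, was at 7.59 and 7.83, a difference of 0.23 or 1.17-fold. JUND, the member of the family that is expressed steadily and is not an immediate early gene, was at 7.21 and 7.10, a difference of -0.11.

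The pair of EGR genes parted. EGR3 stood at 3.42 with EGFP alone and 4.23 with EGFP-ARHGAP4, a difference of 0.80 or 1.75-fold, with 130 genes past the filter showing a larger upward difference. Its EGFP vector value lay below the filter, where values crowd towards background, so the fold is approximate. Over the 2674 named genes with a mean level from 3 to 4.02, chosen without regard to direction, 6.13% were higher by at least 0.5. EGR3 is also among 310 genes that passed the filter with a mean level below 4.02, thus through 1 array only. Of these 21.0% were higher and 15.8% lower by at least 0.5. EGR1, the member induced first and most widely, stood at 6.43 and 6.33 as a mean of both features, a difference of -0.10. That equals the median of all genes past the filter to 2 decimals. EGR4 was at 3.65 and 3.76, below the filter in both arrays. Of the corepressors that EGR proteins bind, NAB1 was at 5.28 and 4.76, a difference of -0.53, and NAB2 at 4.98 and 5.29, a difference of 0.30.

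ATF3, a repressor or activator according to its partner and a gene induced by many stresses, stood at 3.39 with EGFP alone and 3.89 with EGFP-ARHGAP4, a difference of 0.50 or 1.41-fold. Both values lay under the level filter. Of the same 2674 genes of like mean level, 6.13% were higher by at least 0.5, and of the 7127 genes below the filter in both arrays 3.27% were. Of 12 measured genes of the integrated stress response, the pathway through which ATF4 induces ATF3, 3 had an upward and none a downward difference of 0.5 or more, with a median of 0.04, or up to 0.12 under other scalings. These were DDIT4 at 0.76, SESN2 at 0.66 and the asparagine synthetase gene ASNS at 0.53, while the serine synthesis gene PHGDH was at -0.37. Among all 14812 named genes 4.25% had an upward and 6.47% a downward difference of 0.5 or more. DDIT4 lies on chromosome 10, where its 24 neighbouring genes past the filter had a median of 0.33. ATF4 itself stood at 8.07 and 8.14, and DDIT3, which encodes the stress factor CHOP, was below the filter at 2.57 and 2.70.

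MYC, which drives ribosome production and growth, stood at 9.69 with EGFP alone and 9.56 with EGFP-ARHGAP4, a difference of -0.13 or 1.10-fold lower. The value lay close to the median of genes past the filter, with 45.1% of them lower. Its partner MAX was at 4.36 and 4.45. Of 10 measured genes of the MYC network 1 was higher and 1 lower by at least 0.5, and the median was -0.03, above 0 after quantile normalization or loess. Among all 14812 named genes 4.25% were higher and 6.47% lower by that much. MXD4, a MAX-binding repressor, was at 0.58, and MGA, another MAX partner, at -0.52, with MXD1 at -0.45 and MNT at -0.24. Of 19 measured MYC target genes 16 were below 0 and 1, the cyclin gene CCND2 at 0.78, was higher by at least 0.5; none was lower by that much. The targets had a median of -0.17, with PRMT3 at -0.46, DCTPP1 at -0.43 and the nucleolin gene NCL at -0.42. The target median moved to -0.085 after quantile normalization and -0.057 after loess. For comparison, 6 of 14 listed housekeeping genes were measured, and all 6 were below 0. Their median was -0.16 (-0.067 and -0.0495 after the same scalings), and 61.4% of genes past the filter were below 0.

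**Figure D2:**
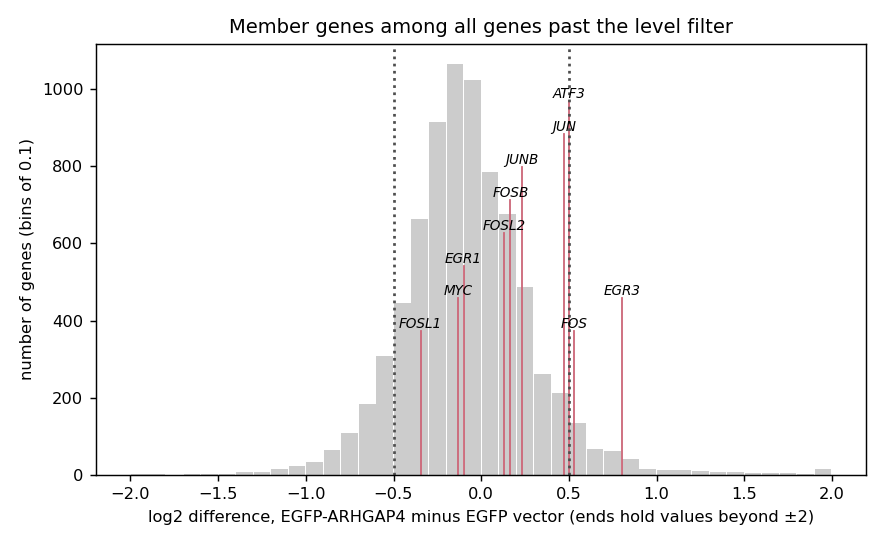
Distribution of log2 differences, EGFP-ARHGAP4 minus EGFP vector, over the 7685 genes past the level filter (grey bars, number of genes per bin of 0.1; the end bins hold values beyond the axis) with each member gene as a red line, whose height carries no value. EGR3, FOS and ATF3, which is itself below the filter, lie at or beyond the upper dotted line at 0.5, and EGR1 and MYC lie at the centre of the distribution.

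Differences in these 2 arrays ran together along some chromosomes, so each member was set beside the 24 nearest genes past the filter on its chromosome, 12 on either side. JUN, JUNB and ATF3 were each higher than all 24 neighbours, whose medians were -0.23, -0.19 and -0.19. ATF3 was itself below the filter in both arrays, unlike its neighbours. Genes below the filter in both arrays had a median of 0.0, against -0.10 for those past it. EGR3 was higher than 23 of its 24 neighbours and FOS than 22, beside medians of -0.08 and -0.07. FOSL2 was higher than 21, beside a median of -0.21. FOSL1 was lower than 22 of its 24 neighbours, which had a median of 0.03. FOSB was different: its neighbours on chromosome 19 had a median of 0.20, above its own 0.17, and 14 of the 24 were higher. EGR1 and MYC lay within the quartiles of their neighbours, whose medians were both -0.18. No member lies on chromosome 10.

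**Figure D3:**
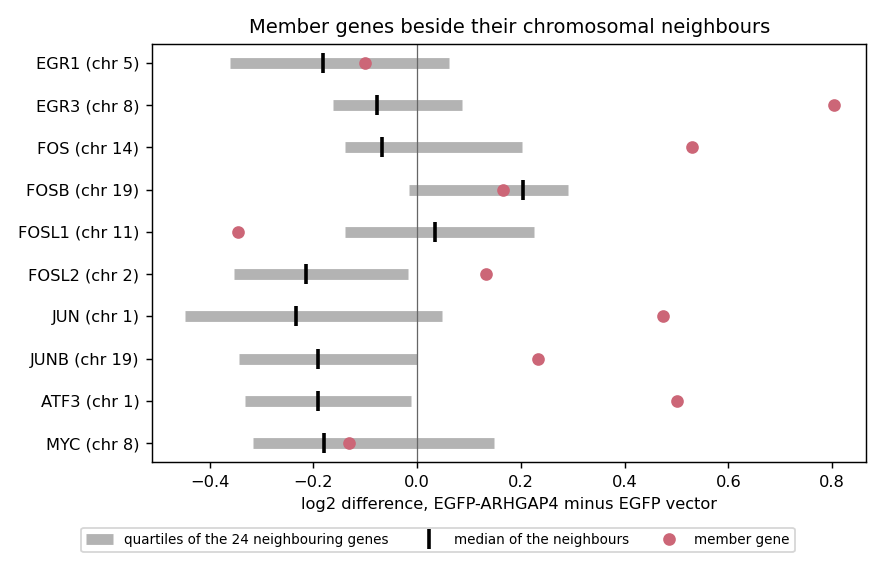
Log2 difference, EGFP-ARHGAP4 minus EGFP vector, of each member gene (red circle) beside the quartiles (grey bar) and median (black mark) of its 24 nearest genes past the level filter on the same chromosome. JUN, JUNB and ATF3 lie above the grey bar and above every one of their neighbours, FOSL1 lies below its bar, and FOSB, EGR1 and MYC lie within theirs. ATF3 is itself below the level filter in both arrays.

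Other genes of the immediate early response were mixed. Of 40 listed genes 26 were measured and 23 passed the filter. The 26 had a median of 0.11, with 18 above 0, 4 higher and 1 lower by at least 0.5. PLK3, a stress-responsive kinase gene, was the highest at 5.57 with EGFP alone and 6.44 with EGFP-ARHGAP4, a difference of 0.86. DUSP1, a phosphatase gene that switches off MAP kinases, was at 9.75 and 10.30, a difference of 0.55, and DUSP5, which acts on nuclear ERK, was at 4.73 and 5.26, a difference of 0.53. KLF4, named after its value was seen to complete the 4, was at 4.21 and 4.71, a difference of 0.50. KLF6 was the only one of the 26 lower by 0.5, at 7.79 and 7.24, a difference of -0.55. Among all 14812 named genes 4.25% were higher and 6.47% lower by at least 0.5. KLF6 and DUSP5 lie on chromosome 10, and their neighbours there had medians of -0.67 and 0.23. DUSP1 and PLK3 had neighbours with medians of -0.17 and -0.07.

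Regulators that act before or beside the members were measured only in part. Of 27 listed genes of the receptor, RAS and ERK, JNK and p38 kinase cascades 14 were measured and 11 passed the filter. None of the 14 differed by 0.5 in either direction, and the median was 0.02. The largest differences past the filter were those of the p38 gene MAPK13 at 0.40, the JNK gene MAPK9 at -0.33, the p38 activator gene MAP2K3 at 0.26 and the ERK gene MAPK3 at -0.23. By comparison, 4.25% of all 14812 named genes were higher and 6.47% lower by at least 0.5. Among only 14 genes, finding none is close to these shares. The receptor gene EGFR stood at 9.40 and 9.56. SRF, which encodes the factor that binds CArG boxes, was at 7.51 and 7.53, and its actin-regulated coactivator genes MRTFA and MRTFB were at -0.11 and -0.28. Of 7 listed genes of the serum response factor complex 4 were measured. These mRNA values say nothing of the activity of the proteins. In the wider AP-1 and ATF family 20 of 30 listed genes were measured, with a median of -0.04 (above 0 after quantile normalization or loess), none higher and 1 lower by at least 0.5. That 1 was CREM, a cyclic AMP response factor gene, at 4.48 and 3.79, a difference of -0.69, on chromosome 10 among neighbours with a median of -0.74; it passed the filter in the EGFP vector array only, as did NRL. The endoplasmic reticulum stress factor gene ATF6B was just under the threshold, at 7.78 and 8.28. NRL at -0.34 and NFE2L3 at -0.28 followed.

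Genes known as AP-1 targets showed a few large differences beside many small ones. Of 26 listed 15 were measured and 9 passed the filter; the median of the 15 was 0.07, with 3 upward and no downward differences of 0.5 or more. By comparison, such differences were found upward in 4.25% and downward in 6.47% of all 14812 named genes. The chemokine gene CXCL8 was at 3.82 with EGFP alone and 4.71 with EGFP-ARHGAP4, a difference of 0.90; it passed the filter in the EGFP-ARHGAP4 array only, as did HMOX1. Past the filter in both arrays was the calcium-binding protein gene S100A9, at 6.92 and 7.46, a difference of 0.54. The third was SPRR1B, a cornified envelope gene named after its value was seen, which was below the filter in both arrays at 1.59 and 2.70. HMOX1 had a difference of 0.29 and VEGFA of -0.30. The cyclin gene CCND1, the adhesion receptor gene CD44 and the protease inhibitor gene TIMP1, also named after their values were seen, were at -0.20, -0.05 and -0.06. The collagenase gene MMP1 was below the filter in both arrays.

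**Figure D4:**
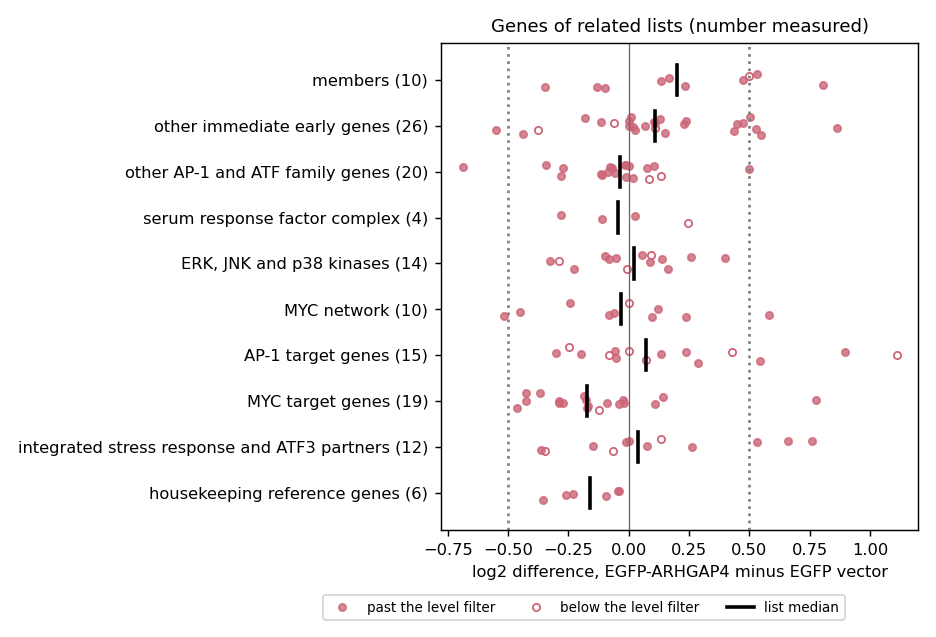
Log2 difference, EGFP-ARHGAP4 minus EGFP vector, of every measured gene in the member list and 9 related lists (circles, filled where past the level filter and open where below it; vertical scatter carries no value), with the list median as a black bar and dotted lines at 0.5 and -0.5. The member median of 0.20 and the median of 0.11 for other immediate early genes lie above 0, those of the MYC targets at -0.17 and the housekeeping genes at -0.16 below it.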

How the data were processed

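RNA of 2 MCF-10A samples, grouped by the genotype in their labels, was amplified with a whole-transcript kit, labelled with biotin and hybridised, per the labels' protocols. The authors deposited 1 normalized log2 value per feature for 44629 features (software, normalization and genome build: not given in the sources used here). Its log base was read from the values, which reach 12.8, and the table was used as deposited. The platform annotation of 2020 named 15835 features, all matched to the RefSeq gene table of GRCh38.p14 by Entrez identifier, and log2 values of features of 1 gene were averaged. With 1 array per group no test, p-value or standard error was computed; the number of arrays limits the precision. Differences of at least 0.5 were counted over all members, measured list genes and genes past the level filter.

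The members and lists were chosen with earlier results of these data known. From each list the rule named up to 4 genes past the filter with the largest absolute difference; JUND, EGR4, ATF4, DDIT3, MAX, EGFR, MMP1 and KRT5 and the genes named for equal values were added after their values were seen. Alternatives were quantile normalization, centring, loess (span 0.3), the feature with the highest mean level, other filters and other thresholds. The calculation was tested on simulated data, as a check of the code only. The planted shifts exceeded every member difference, so the check does not speak for differences of that size. Computation used Python 3.11.15, numpy 2.4.6 and pandas 2.3.3, the loess curve statsmodels 0.14.6, and the figures matplotlib 3.10.9.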

Additional observations from a re-analysis of the deposited data

How the results depend on the processing

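None of the 10 member differences changed sign under quantile normalization, centring, loess or the feature with the highest mean level. EGR1 ranged from -0.10 to -0.0053 and MYC from -0.13 to -0.0037, so their direction relative to other genes is not settled. EGR3, FOS and ATF3 stayed at or above 0.5 in all 5 settings, the deposited values included, FOS reaching 0.79 on its brighter feature. JUN passed 0.5 in 2. Centring left every member difference as deposited, and the choice of feature could not move EGR3, JUN or ATF3, with 1 feature each. For these genes only quantile normalization and loess could give another value. Quantile normalization moved the median of genes past the filter from -0.10 to -0.015 and loess to -0.0081. The medians of the AP-1 and ATF family (-0.04 to 0.03), the serum response factor complex (-0.04 to 0.07) and the MYC network (-0.03 to 0.03) changed sign. At a threshold of 1 no member was higher (0), against 77 higher and 61 lower of all genes past the filter; at 0.25, 1 member was lower, against 1091 higher and 2297 lower of all genes. Without a filter 629 genes were higher by 0.5, and with the filter at the 0.75 quantile 185 were higher and 408 lower. List medians are small beside the spread of single genes, so their stability was not judged; the members' median lay between 0.016, with the filter at the 0.75 quantile, and 0.29, after loess. No paired analysis was possible because each group has 1 array.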

Other observations

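Some genes held the same value in both arrays to the last deposited digit, among them the immediate early gene IER2 at 6.18 and the stress genes ATF6 at 7.67 and TRIB3 at 6.51. Of 134 measured genes in the member list and the related lists (cell type markers aside) 5 did so, the others being MLXIPL and MMP10, both below the level filter. Over all features it was 3106 of 44629 (6.96%), and over genes past the filter 148 of 7685 (1.93%). None of the 10 members was among them. These differences of exactly 0 enter the list medians and counts above as deposited.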
